A study of Mus musculus with 8 samples.

Results

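The 9 genes described here are the NR4A nuclear receptors *Nr4a1*, *Nr4a2* and *Nr4a3* and the genes *Sik1*, *Rgs1*, *Rgs2*, *Vps37b*, *Litaf* and *Gpr34*, most of them known as transcripts of tissue-resident T cells. They were taken by gene symbol from the array annotation, out of 18193 genes with a probe set of their own, and part of them were chosen by their higher level in tumor T cells on these same arrays. The tumor against lymph node (LN) values below are therefore a description with no test, while the response to ionizing radiation (IR) and its difference between tissues were tested. The study asked whether CD8+ T cells inside tumors respond to IR differently from those of LN.

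The samples were CD3+CD8+CD44+CD62L- T cells, that is, antigen-experienced CD8+ T cells, sorted from MC38 tumors or from LN. All donors were C57BL/6 female mice, 6 to 8 weeks old when MC38 cells, a mouse colon carcinoma line, were injected under the skin. There were 4 groups of 2 arrays each: tumor IR and LN IR, from mice given 5 Gy to the whole body 5 h before the organs were taken, and tumor no IR and LN no IR, from mice given none. Each array held RNA of cells pooled from 4 mice, and no group came from mice without a tumor. Tumors were digested with enzymes and spun in Percoll, and CD8+ T cells were enriched from them by positive selection before the sort. LN were only disrupted mechanically, and the study's methods describe no such enrichment for them. The tissue of origin and these preparation steps therefore cannot be told apart in any tumor against LN value.

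NR4A receptors are orphan nuclear receptors, transcription factors of the steroid receptor family that bind DNA without a known hormone. In T cells they are switched on quickly by antigen receptor signaling, calcium entry or cAMP, and sustained expression is known from T cells that see antigen persistently in tumors. *Sik1* encodes a salt-inducible kinase that is itself induced by cAMP and that keeps the CREB coactivators of the CRTC family out of the nucleus. RGS1 and RGS2 shorten signals of G protein-coupled receptors, among them those through which chemokines and cAMP-raising ligands act. VPS37B is a subunit of ESCRT-I, the complex that sorts ubiquitylated receptors toward the lysosome, LITAF is a small protein of late endosomes and lysosomes, and GPR34 is a receptor for lysophosphatidylserine best known from macrophages, microglia and mast cells.

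The start regions of these genes are shown because CREB, which binds the letters TGACG of the cAMP response element (CRE), is a known inducer of several of them. Of the 9 genes, 5 had an entry in the RefSeq promoter table of GRCm38.p6 (*Nr4a1*, *Nr4a2*, *Nr4a3*, *Rgs2* and *Litaf*), and the 250 bases before the start that the table uses were searched on both strands. For *Nr4a2*, *Rgs2* and *Litaf* this start is the outermost one of the RefSeq gene. The RefSeq genes *Nr4a1* and *Nr4a3* begin further upstream, at position 101253902 and at position 48045078, so that the whole *Nr4a1* window and most of the *Nr4a3* window lie inside the annotated gene. This CRE core is in capitals in each sequence, as TGACG on the strand shown or as its reverse complement. *Nr4a1* at chr15:101266596-101266845 (plus strand), *Nr4a2* at chr2:57124004-57124253 (minus strand) and *Rgs2* at chr1:144004150-144004399 (minus strand) are shown whole, and of *Nr4a3* only the 30 bases at chr4:48045083-48045112 (plus strand) in which cores stand on both strands.
Nr4a1: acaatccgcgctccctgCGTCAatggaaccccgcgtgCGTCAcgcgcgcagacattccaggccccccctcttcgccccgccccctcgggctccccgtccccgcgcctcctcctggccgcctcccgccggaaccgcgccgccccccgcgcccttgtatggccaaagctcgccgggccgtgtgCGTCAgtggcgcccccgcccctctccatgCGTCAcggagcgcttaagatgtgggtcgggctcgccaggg
Nr4a2: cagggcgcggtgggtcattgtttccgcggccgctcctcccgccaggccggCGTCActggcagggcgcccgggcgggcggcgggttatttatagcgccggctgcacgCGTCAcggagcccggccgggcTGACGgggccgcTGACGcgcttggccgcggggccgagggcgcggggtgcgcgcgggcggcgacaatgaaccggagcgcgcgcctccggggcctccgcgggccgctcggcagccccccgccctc
Nr4a3: gtcccatgtCGTCAcatTGACGtctcgcat
Rgs2: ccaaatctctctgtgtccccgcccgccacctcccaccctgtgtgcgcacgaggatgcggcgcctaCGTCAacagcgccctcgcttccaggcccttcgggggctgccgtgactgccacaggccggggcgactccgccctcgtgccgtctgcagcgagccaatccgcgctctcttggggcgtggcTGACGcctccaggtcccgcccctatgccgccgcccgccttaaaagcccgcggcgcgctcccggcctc

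Each of the 3 NR4A genes held 4 CRE cores in the 250 bases, *Rgs2* held 2 and *Litaf* held 0. All 4 of *Nr4a1* and 3 of the 4 of *Nr4a3*, the printed pair included, lie past the outermost RefSeq start of the gene, and those of *Nr4a2* and *Rgs2* lie before it. Of 32851 promoters of the same length, 17.8% held at least 1 core, 3.9% at least 2 and 0.137% at least 4. The full palindrome TGACGTCA, which contains the core on both strands, was in 1.55% of promoters and in none of the 5. The NR4A monomer site AAAGGTCA (1.34% of promoters), the AP-1 site TGANTCA (6.75%) and the serum response element (1.47%) were in none of the 5 either, and the NFAT core GGAAA, held by 55.6% of promoters, was in those of *Nr4a2* and *Litaf*, once each. These are matches of letters in a window, and no binding was measured.

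All values are the log2 intensities deposited by the authors, and a difference of 1 is a doubling. The 2 arrays of a group correlated at 0.992 in tumor IR, 0.993 in tumor no IR, 0.966 in LN IR and 0.982 in LN no IR, so that LN arrays, and LN IR most, varied more between replicates. The SD between the 2 arrays was 0.00 to 0.05 for the 9 genes in tumor IR and 0.03 to 0.28 in tumor no IR, against 0.15 to 1.42 in LN IR and 0.05 to 0.96 in LN no IR. A gene is said to have risen or fallen, or to be called, where the adjusted p of limma was under 0.1 and the log2 fold change was 1 or more in size. The lower quartile of an array was 5.38 to 5.59, and all 9 genes lay above it on every array. The number of arrays, 2 a group, limits the precision of every value. For each probe set the fit shared a single spread between pools over all 4 groups, so a gene has the same standard error in both tissues. Its p-values and intervals therefore do not measure the spread of LN pools alone, which was larger, or of tumor pools alone. With only the 4 arrays of a tissue in the fit, 0 genes were called with IR in LN T cells, against 191. In tumor T cells 173 were called, against 18.

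*Nr4a1*, also known as Nur77 and read by 1 probe set, stood at 9.06 and 9.11 in tumor IR, at 8.63 and 9.03 in tumor no IR, at 9.94 and 9.54 in LN IR and at 8.88 and 8.10 in LN no IR. Both LN IR arrays thus lay above all 6 others, whereas tumor no IR and LN no IR overlapped. In tumor T cells the log2 fold change with IR was 0.25 ± 0.28 (SE; 95% interval −0.42 to 0.92; n = 2 arrays a group; limma adjusted p = 0.673). In LN T cells it was 1.25 ± 0.28 (0.58 to 1.92), 2.38-fold, and the adjusted p of 0.135 missed the threshold.

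*Nr4a2*, or Nurr1, read on its brightest of 6 probe sets 11.91 and 11.90 in tumor IR, 12.04 and 11.80 in tumor no IR, 11.34 and 11.76 in LN IR and 10.90 and 10.06 in LN no IR. LN no IR stood alone at the low end, and all 4 tumor arrays lay above all 4 LN arrays. The fold change with IR was −0.01 in tumor T cells (−0.69 to 0.67, limma adjusted p = 0.991) and 1.07 ± 0.29 in LN T cells (0.39 to 1.74, adjusted p = 0.180). The other 3 bright *Nr4a2* probe sets gave 1.11, 1.14 and 0.75 in LN T cells, the last with LN arrays that overlapped, and the 2 dimmest, with means of 7.60 and 5.41, gave 0.12 and 0.22.

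*Nr4a3*, or Nor1, was the least certain of the family. Its main probe set read 10.46 and 10.39 in tumor IR, 9.82 and 9.95 in tumor no IR, 10.96 and 8.95 in LN IR and 9.32 and 8.33 in LN no IR. The LN IR arrays were 2 log2 units apart and bracketed all 4 tumor arrays, and the fold change with IR in LN T cells, 1.13 ± 0.61, spanned −0.31 to 2.56 (limma adjusted p = 0.436). A dimmer *Nr4a3* probe set read 10.29 and 10.71 in LN IR against 9.64 and 8.52 in LN no IR, a fold change of 1.42 (adjusted p = 0.153), and on it tumor IR, at 9.41 and 9.19, lay below tumor no IR, at 9.67 and 9.68. The 2 probe sets thus disagreed on the second LN IR array and on whether tumor IR lay above or below tumor no IR. Without the second LN IR array the main probe set passed the test (fold change 2.14, adjusted p = 0.066). The third probe set, dim with a mean of 6.36, placed IR above no IR without overlap in both tissues.

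**Figure D1:**
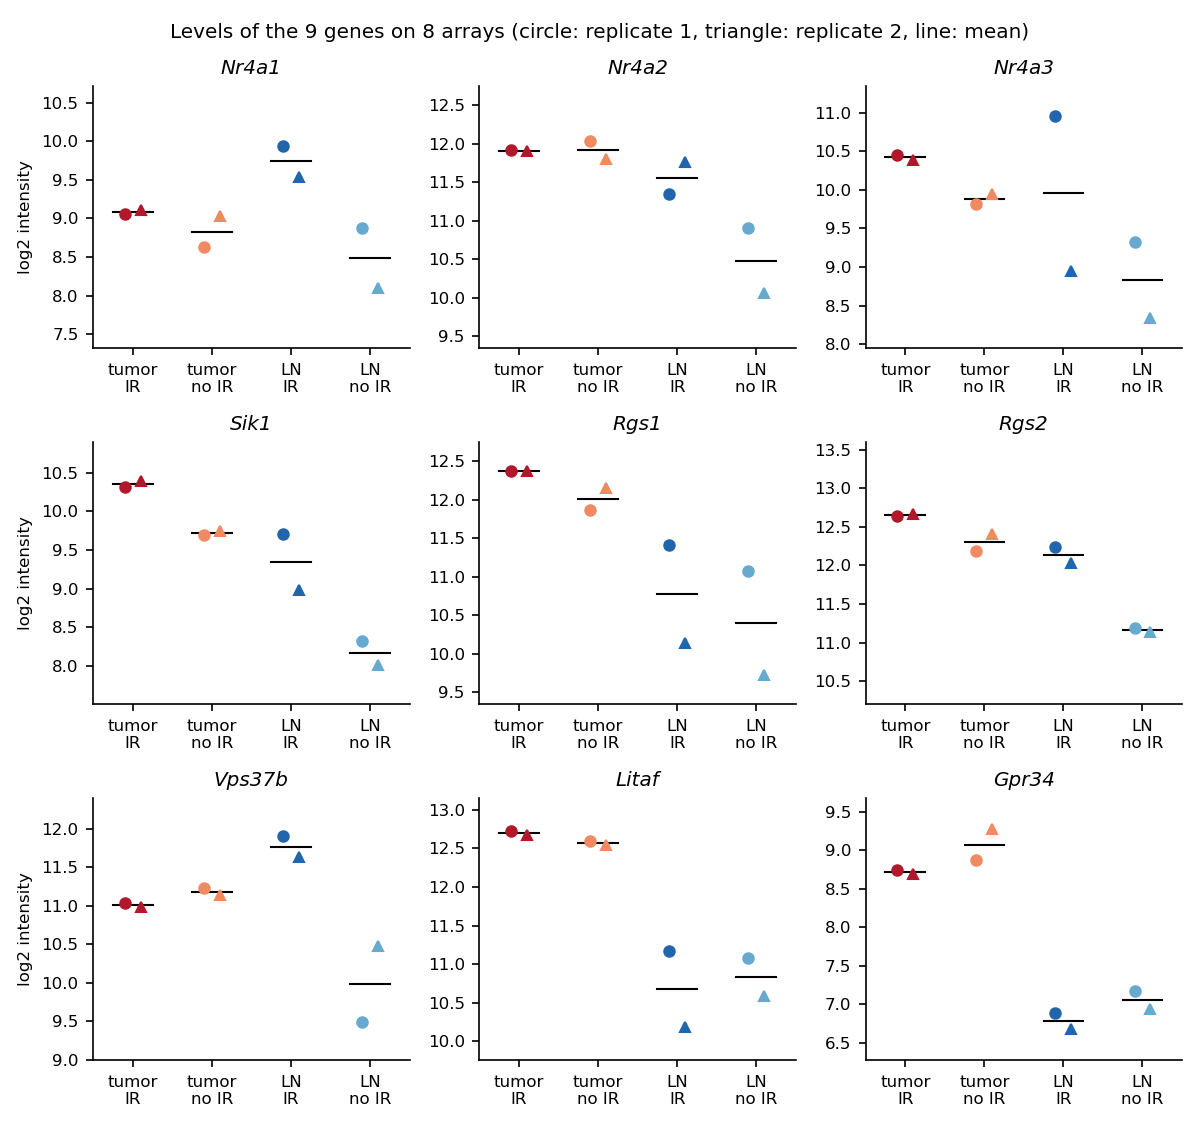
Levels of the 9 genes on the 8 arrays, in log2 intensity on each vertical axis (every panel spans the same width of 3.4 log2 units, at the level of its gene). Circles are replicate 1, triangles replicate 2 and lines group means. *Nr4a1* and *Vps37b* are highest in LN IR. In *Nr4a2*, *Rgs1*, *Litaf* and *Gpr34* all 4 tumor arrays lie above all 4 LN arrays. In *Sik1* and *Rgs2* the tumor arrays lie above the LN arrays with IR and without it, but tumor no IR overlaps LN IR.

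*Sik1* stood at 10.31 and 10.39 in tumor IR, 9.70 and 9.75 in tumor no IR, 9.71 and 8.98 in LN IR and 8.31 and 8.01 in LN no IR. With and without IR the tumor arrays lay above the LN arrays, and in each tissue the IR arrays lay above those without. The fold change with IR was 0.63 ± 0.25 in tumor T cells (0.05 to 1.21, limma adjusted p = 0.315) and 1.18 ± 0.25 in LN T cells (0.60 to 1.77, adjusted p = 0.109). A dimmer *Sik1* probe set gave −0.51 in tumor T cells, the opposite side, and 0.47 in LN T cells.

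*Rgs2*, whose product acts mainly on Gq-coupled receptors and also dampens cAMP production, had the smallest standard error of the 9 genes. It read 12.64 and 12.67 in tumor IR, 12.19 and 12.41 in tumor no IR, 12.24 and 12.04 in LN IR and 11.20 and 11.13 in LN no IR. LN IR reached the range of tumor no IR, and LN no IR stood alone below. The fold change with IR was 0.36 in tumor T cells (0.00 to 0.72, limma adjusted p = 0.331). In LN T cells it was 0.98 ± 0.15 (0.62 to 1.33), which passed the p limit (adjusted p = 0.055) and was just under the fold limit of 1, so *Rgs2* was not called. The next *Rgs2* probe set read 12.66 and 12.85 in tumor IR, 11.89 and 12.14 in tumor no IR, 11.80 and 10.82 in LN IR and 10.73 and 10.10 in LN no IR. That one and the third placed IR above no IR without overlap in both tissues, and on the dimmest, with a mean of 7.15, all groups overlapped.

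*Rgs1*, which restrains chemokine-driven migration of lymphocytes, followed tissue instead. Levels were 12.38 and 12.37 in tumor IR and 11.86 and 12.15 in tumor no IR, against 11.41 and 10.14 in LN IR and 11.07 and 9.72 in LN no IR. Replicate 1 was the higher array in both LN groups by more than 1 log2 unit, and LN IR and LN no IR overlapped. The fold change with IR was 0.37 in tumor T cells (−0.84 to 1.58, limma adjusted p = 0.743) and 0.39 ± 0.51 in LN T cells (−0.82 to 1.60, adjusted p = 0.756).

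*Vps37b* was the 1 of the 9 genes called in an IR comparison by the least-squares fit, and it rose in LN T cells. It read 11.03 and 10.98 in tumor IR, 11.22 and 11.13 in tumor no IR, 11.90 and 11.64 in LN IR and 9.50 and 10.47 in LN no IR. LN IR was thus the highest group and LN no IR the lowest, with all 4 tumor arrays between them. In tumor T cells the 2 IR arrays lay below both arrays without IR, with a difference of −0.17 (−0.87 to 0.53, limma adjusted p = 0.797). The log2 fold change with IR in LN T cells was 1.78 ± 0.30 (1.08 to 2.48), 3.44-fold, with an adjusted p of 0.066. The LN call was lost with array weights (adjusted p = 0.199), with only the 4 LN arrays in the fit (0.618), without either tumor IR array (0.185), without either tumor no IR array (0.199) and without the first LN no IR array, the lowest of all (fold change 1.30, adjusted p = 0.1001).

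*Litaf* and *Gpr34* separated the tissues most widely. *Litaf* stood at 12.72 and 12.68 in tumor IR and 12.59 and 12.54 in tumor no IR, against 11.17 and 10.19 in LN IR and 11.08 and 10.59 in LN no IR, and its other 2 probe sets, of which 1 also reads the gene *Gm9861*, ordered the tissues the same way. *Gpr34* stood at 8.74 and 8.70 in tumor IR and 8.87 and 9.27 in tumor no IR, against 6.90 and 6.69 in LN IR and 7.17 and 6.95 in LN no IR. With IR *Litaf* differed by 0.13 in tumor T cells (−0.62 to 0.88, limma adjusted p = 0.856) and by −0.15 in LN T cells (−0.90 to 0.59, 0.848). *Gpr34* differed by −0.35 in tumor T cells (−0.79 to 0.08, 0.395) and by −0.27 in LN T cells (−0.70 to 0.17, 0.536).

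Without IR, tumor T cells had more of 8 of the 9 transcripts, with no overlap between the arrays of the 2 tissues, which 21.3% of all genes also showed. The difference in mean level was 2.01 for *Gpr34* (4.03-fold), 1.74 for *Litaf*, 1.62 for *Rgs1*, 1.56 for *Sik1*, 1.44 for *Nr4a2*, 1.19 for *Vps37b*, 1.14 for *Rgs2* and 1.06 for *Nr4a3*. *Nr4a1* had the smallest, 0.34, and its arrays overlapped. The median over the 9 genes was 1.44, against −0.09 over all genes. Since part of the genes were picked for this difference, nothing is read from the count or the median. In bulk samples such as these, fewer cells that carry a transcript and less transcript per cell cannot be told apart.

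With IR in both tissues the picture on the main probe sets was narrower. There 6 of the 9 lay above without overlap, against 30.1% of all genes, and the median was 0.52, against 0.06. *Litaf* (2.02), *Gpr34* (1.93) and *Rgs1* (1.60) kept differences of the earlier size, and *Sik1* (1.01), *Rgs2* (0.52) and *Nr4a2* (0.36) kept smaller ones. Other probe sets differed. The next *Rgs2* probe set gave 1.60 without IR and 1.44 with it, the third 1.04 and 0.93, and the dimmest 0.26 and 0.17. The other bright ones of *Nr4a2* gave 1.74, 1.82 and 2.48 without IR and 0.68, 1.02 and 2.17 with it. Its dimmest gave −0.0003 and 0.01, then 0.21 and 0.26. The dimmer *Sik1* probe set gave 0.57 and −0.41. *Nr4a3* was 0.47 higher in tumor T cells with overlapping arrays, and without the second LN IR array the difference was −0.54. The second *Nr4a3* probe set gave −1.19, with tumor IR below LN IR without overlap, and the third −0.08 with overlap. *Vps37b* and *Nr4a1* stood the other way round, lower in tumor IR than in LN IR without overlap (20% of all genes), with differences of −0.76 and −0.66. For 4 of the 9 genes (*Nr4a2*, *Rgs1*, *Litaf* and *Gpr34*) all 4 tumor arrays lay above all 4 LN arrays, against 10.9% of all genes.

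**Figure D2:**
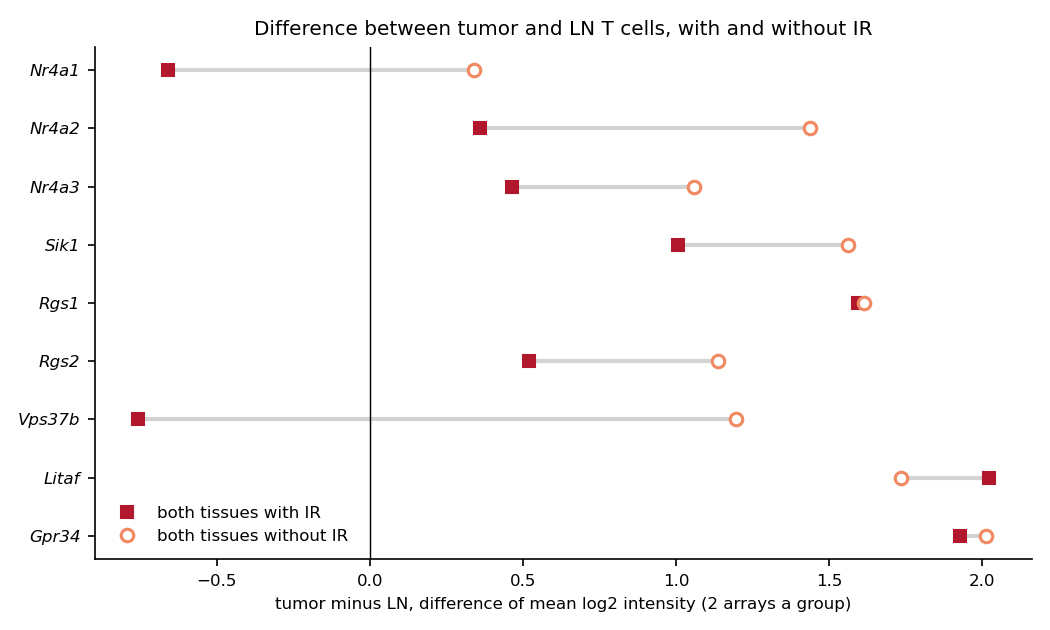
Tumor minus LN difference of mean log2 intensity for the main probe set of each gene, with squares where both tissues had IR and open circles where neither had (2 arrays a group). Squares lie left of circles for every gene but *Litaf*, and left of 0 for *Nr4a1* and *Vps37b*.

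The IR comparison in LN T cells called 1 of the 9 genes, *Vps37b*, against 1.05% of all 18193 genes called in either direction. A log2 fold change of at least 1 was reached by 5 of 9 (*Vps37b*, *Nr4a1*, *Sik1*, *Nr4a3* and *Nr4a2*), against 1.61% of all genes, and an unadjusted limma p under 0.05 also by 5 (*Vps37b*, *Rgs2*, *Sik1*, *Nr4a1* and *Nr4a2*), against 14.3%. In 5 of 9 both LN IR arrays lay above both LN no IR arrays, against 21.8% of all genes, and in 1, *Gpr34*, both lay below, against 19.5%. The median fold change was 1.07, against 0.01 over all genes. Other settings called further members beside *Vps37b*. The robust fit, which the study's methods name, called *Sik1* (limma adjusted p = 0.0195), *Nr4a1* (0.0407) and *Nr4a2* (0.0455). Scaling to T cell identity genes called *Rgs2* (0.0216), *Sik1* (0.0306) and *Nr4a1* (0.0637), cyclic loess also called these 3, and leaving out the dimmer probe sets called *Sik1* (0.0925). Without the first LN IR array *Nr4a1* and *Nr4a2* were called, and without the second *Nr4a3*, *Sik1* and *Rgs2*. The LN no IR arrays enter both this comparison and the tumor against LN values by which part of the genes were picked, so that a low LN no IR array raises both, and these counts are not independent of the choice.

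In tumor T cells the same comparison called 0 of the 9, against 0.0989% of all genes, and neither the robust fit nor the fit with array weights called any. An unadjusted limma p under 0.05 was reached by 2 (*Sik1* and *Rgs2*), against 16.6% of all genes. Tumor IR lay above tumor no IR without overlap in 6 of the 9 (*Nr4a1*, *Nr4a3*, *Sik1*, *Rgs1*, *Rgs2* and *Litaf*), against 41.4% of all genes, and below in 2 (*Vps37b* and *Gpr34*), against 26%. The median fold change was 0.25, against 0.09. The tumor no IR arrays likewise enter both this comparison and the tumor against LN values, and a high tumor no IR array lowers the fold change, so that these counts too are not independent of the choice.

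**Figure D3:**
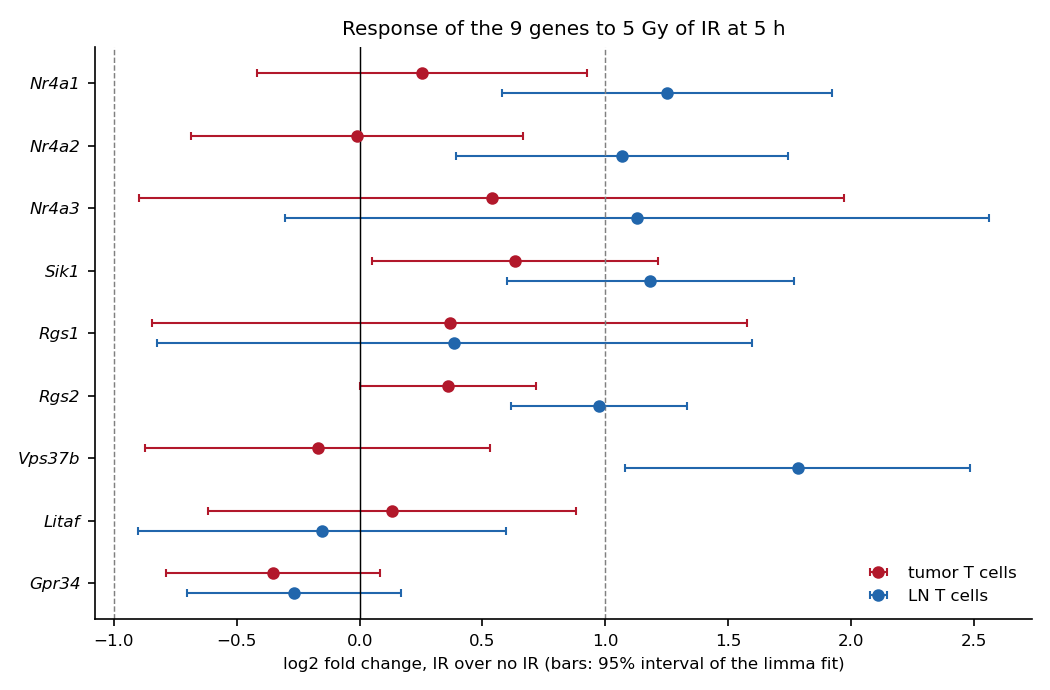
Log2 fold change of each gene, IR over no IR, in tumor T cells (red) and LN T cells (blue), with 95% intervals of the limma fit on 2 arrays a group. Dashed lines mark the fold limit of 1 in either direction. The intervals of *Nr4a1*, *Nr4a2*, *Sik1*, *Rgs2* and *Vps37b* in LN T cells lie above 0, and that of *Vps37b* also above 1.

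The difference of the IR effect, tumor minus LN, was below 0 for 8 of the 9 genes, against 34.2% of all genes, and called for 0 of 9, against 0% of all genes. The unadjusted limma p was under 0.05 for 4 of 9, against 5.63%, with differences (± SE) as follows: *Vps37b* (−1.95 ± 0.42), *Rgs2* (−0.62 ± 0.22), *Nr4a2* (−1.08 ± 0.41) and *Nr4a1* (−0.999 ± 0.40). Their adjusted p-values in limma were 0.687 to 0.782. *Sik1* (−0.55) and *Nr4a3* (−0.59) had intervals that included 0, *Rgs1* was at −0.02 (−1.73 to 1.69), *Gpr34* at −0.08 and *Litaf* at 0.29. These are values of the main probe sets. The other *Rgs2* probe sets gave only −0.16, −0.11 and −0.08. Those of *Nr4a2* gave −1.06, −0.80 and −0.31, and the 2 dimmest 0.21 and 0.25. The second *Nr4a3* probe set gave −1.79 (−2.94 to −0.64) and the third −0.61. The robust fit called *Vps37b* (adjusted p = 0.079), as did the fit without the first LN IR array (0.096). A smaller response of these genes in tumor than in LN T cells was therefore not shown at the threshold, and the interval of *Vps37b*, −2.95 to −0.96, was the one farthest from 0. This difference is also the tumor minus LN value with IR less that without IR. A choice of genes for a high tumor minus LN value without IR pushes it below 0 by itself, so nothing is read from the counts of 8 and 4.

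Of the genes around these 9 in their pathways, those listed under cAMP and CREB response held the most calls with IR in LN T cells. Of 15 measured genes 6 rose and 0 fell, with a median fold change of 1.15, against 0.01 over all genes. *Crem*, which encodes a CREB-family factor that closes the cAMP response, stood at 10.62 and 10.56 in LN IR against 7.80 and 7.55 in LN no IR, a fold change of 2.92 ± 0.19 (limma adjusted p = 0.00301). *Fosl2*, an AP-1 subunit, rose by 2.74 (adjusted p = 0.00301) and *Atf3*, a stress-induced member of the ATF/CREB family, by 2.01 (adjusted p = 0.062). *Fosb*, *Pde4d* and *Per1* were the other 3 called. The count was 11 without the first LN IR array, 3 without the first and 2 without the second LN no IR array, 2 without any one tumor array, 3 with array weights and 0 with only the LN arrays in the fit.

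In tumor T cells 0 of these 15 genes passed limma's test with IR, under any setting tried, and the unadjusted p was under 0.05 for *Fosl2* (0.0097) and *Pde4a* (0.0203). *Crem* stood at 9.83 and 9.34 in tumor IR against 9.37 and 9.39 in tumor no IR, and *Fosl2* at 10.35 and 10.58 against 9.76 and 9.89. On all 4 tumor arrays both read above LN no IR. Without IR, tumor T cells had more of 6 of the 15 than LN T cells, led by *Atf3* (3.13 ± 0.33, adjusted p = 0.00269), *Nfil3* (2.41) and *Fosl2* (2.33). With IR only *Atf3* was (1.38, adjusted p = 0.049), while *Crem* (−1.004, 0.026) and *Pde4d* (−1.05, 0.030) were lower in tumor T cells. Without the second tumor IR array these 3 calls became 0. The difference of the IR effect had a median of −1.25 over the list, against 0.12 over all genes, with 0 of 15 called, 2 by the robust fit and 4 without the first LN IR array, and the unadjusted p was under 0.05 for 7 of them.

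**Figure D4:**
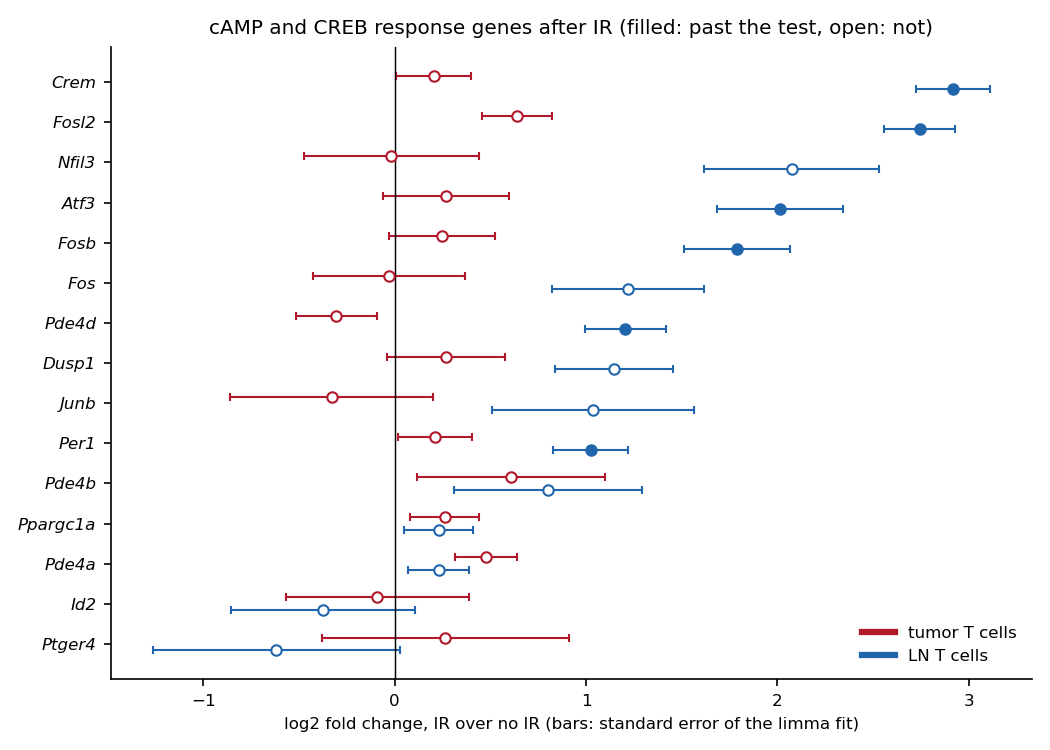
Log2 fold change with IR of the 15 measured cAMP and CREB response genes, in tumor T cells (red) and LN T cells (blue). Bars are the standard error of the limma fit, and filled points passed the test. All 6 filled points are LN values, from *Per1* at 1.02 to *Crem* at 2.92, and the highest tumor value is 0.64 for *Fosl2*.

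The genes listed under antigen receptor and calcium signaling, also a known inducer of NR4A receptors, had fewer calls. No gene stands in both this list and the cAMP and CREB list, whether or not both signals induce it. The lists were also chosen with earlier results of these data known. The counts therefore do not separate the inducers, and which signal acted with IR was not tested. With IR in LN T cells 2 of 18 rose, *Dusp5* (1.60 ± 0.25, limma adjusted p = 0.052), which encodes a phosphatase of ERK, and *Cd69* (1.05 ± 0.18, adjusted p = 0.067), an early activation marker that opposes egress from tissue, and the median was 0.09. Tumor T cells had 0 of 18 called with IR. Without IR *Tnfrsf9*, the costimulatory receptor 4-1BB (2.44), *Dusp5* (1.53) and *Egr1* (1.40), 3 of 18, were higher in tumor T cells. With IR 4 were higher, led by *Dusp6* (2.33), *Tox* (1.73) and *Tnfrsf9* (1.61), and *Batf* was lower (−1.67). These 5 calls with IR in both tissues became 0 without either tumor IR array. The 3 without IR became 1 without the second tumor no IR array and 7 without either LN IR array. The 2 with IR in LN T cells became 0 without any one tumor array or the second LN no IR array, 1 without the first LN no IR array and 5 without the first LN IR array.

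Among the SIK kinases, their coactivators and substrates, 1 of 10 genes rose with IR in LN T cells, *Hdac4*, a class IIa histone deacetylase that SIK kinases phosphorylate (1.07 ± 0.14, limma adjusted p = 0.029). *Hdac4* was lower in tumor IR than in LN IR by a log2 difference of −1.25 (adjusted p = 0.00325), and *Sik2*, *Sik3* and the CRTC genes were not called in any comparison. Of the 17 other RGS genes, *Rgs12* rose with IR in LN T cells (2.51 ± 0.37, adjusted p = 0.048), with 9.72 and 8.42 in LN IR against 6.64 and 6.48 in LN no IR. *Rgs12* also read higher with IR in tumor T cells, at 8.29 and 8.29 against 6.99 and 7.25, but was not called there. *Rgs8* was higher in tumor T cells without IR (1.64) and with it (1.55), and with IR *Rgs5* (4.59) and *Rgs16* (2.95) were higher there and *Rgs10* was lower (−1.78). *Rgs5* read 9.04 and 10.35 in tumor IR and 5.06 and 9.75 in tumor no IR, against 4.61 to 5.18 on the LN arrays. The first tumor no IR array thus lay within the LN range. Of 11 G protein alpha subunits, *Gnaq*, on whose product RGS2 acts, was the 1 called, higher in tumor T cells without IR (1.51, adjusted p = 0.021) and with it (1.54, adjusted p = 0.018), and 0 were called with IR in tumor or LN T cells.

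Of 15 genes of ESCRT-I and endosomal sorting other than *Vps37b*, 0 were called with IR in either tissue, the other VPS37 subunits included. *Pdcd6ip* still read higher with IR in both tissues without overlap. It stood at 12.44 and 12.34 in tumor IR against 11.16 and 11.06 in tumor no IR. In LN IR it stood at 11.59 and 11.24, against 11.00 and 10.43 in LN no IR. *Nedd4*, a ubiquitin ligase that binds LITAF, was higher in tumor T cells without IR (1.21 ± 0.19, limma adjusted p = 0.015) and with it (2.00, adjusted p = 0.00194). Of 10 lysophospholipid and P2Y12-like receptors, the relatives of *Gpr34*, *Gpr132* (1.51, limma adjusted p = 0.085) and *P2ry10* (1.18, adjusted p = 0.057), which encodes another lysophosphatidylserine receptor, rose with IR in LN T cells. *Gpr132* (−1.37, adjusted p = 0.029) and *Lpar6*, a lysophosphatidic acid receptor (−1.19, adjusted p = 0.063), were lower in tumor IR than in LN IR, and the 3 calls of that comparison became 1 without the first tumor IR array. *P2ry12* was the 1 higher in tumor T cells, without IR (3.52) and with it (3.10), and stood at 7.16 and 8.71 in tumor IR, 8.73 and 9.66 in tumor no IR, 4.75 and 4.91 in LN IR and 5.36 and 5.99 in LN no IR.

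Over the 131 measured genes of these 6 lists and the 3 others described here, the 13 calls with IR in LN T cells (9.92% of them, against 1.05% of all genes) became 3 without either tumor IR array, 2 without either tumor no IR array, 5 and 3 without the first and the second LN no IR array, and 38 without the first LN IR array. The 27 calls between tumor and LN without IR (20.6%, against 5.54% of all genes) became 17 without the second tumor no IR array, and the 36 with IR (27.5%, against 6.8%) became 21 and 19 without the first and the second tumor IR array.

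Of 20 other genes known from resident memory T cells, 5 were higher in tumor T cells without IR and 8 with it, with 0 lower, and medians of 0.92 and 0.69, against −0.09 and 0.06 over all genes. *Cd244a*, an activating and inhibitory receptor, led without IR (4.17 ± 0.33, limma adjusted p = 0.000854), ahead of *Itga1*, the collagen-binding integrin CD49a (3.09), and *Cdh1*, E-cadherin (2.97). *Itgae*, which encodes CD103, the integrin chain that binds E-cadherin and a defining marker of many resident cells, read the other way and is named after its values were seen. It stood at 7.40 and 8.36 in tumor IR and 7.93 and 9.21 in tumor no IR, against 10.92 and 8.96 in LN IR and 11.65 and 10.53 in LN no IR. Its difference of −2.52 ± 0.74 without IR (adjusted p = 0.123) and of −2.06 ± 0.74 with it (0.149) did not pass the test, although the arrays of the 2 tissues did not overlap in either comparison. Of 15 genes of circulating memory T cells, 9 were lower without IR and 10 with it, among them *Cmah* (−3.79 without IR), *S1pr1*, the receptor that draws T cells out of tissue (−3.06), and *Slamf6* (−3.02). With IR the resident list had 1 call in LN T cells, the fall of *Cdh1* (−2.27 ± 0.34, adjusted p = 0.052), and the circulating list 0, and in tumor T cells neither had any. The 5 calls of the resident list without IR became 3 without either tumor no IR array and 9 without either LN IR array. The 8 with IR became 5 without either tumor IR array. The call of *Cdh1* was lost without any one tumor or LN no IR array, and without the first LN IR array the list held 10 calls.

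Markers of some other cell types also differed between the tissues. Of 22 markers of macrophages and monocytes, 18 read higher on the tumor arrays without IR and 15 with it, by the same test, and none was called with IR in either tissue. Their mean level was 8.68 and 9.93 in tumor IR and 9.86 and 10.59 in tumor no IR, against 6.68 and 6.83 in LN IR and 6.50 and 6.87 in LN no IR. *C1qa*, a complement gene of tissue macrophages, read 10.59 and 11.68 in tumor IR and 12.13 and 12.56 in tumor no IR, against 5.74 and 6.88 in LN IR and 5.53 and 6.43 in LN no IR. None of the 22 was under the lower quartile on both tumor arrays of a group, and 2 were in LN IR and 3 in LN no IR. With IR in tumor, 20 of the 22 read lower, with a median of −1.12, while *Gpr34* read −0.35 and *Litaf* 0.13. The tumor array with the lowest macrophage mean, the first of tumor IR, had the second-lowest *Gpr34* of the tumor arrays and the highest *Litaf*. The tumor array with the highest macrophage mean, the second of tumor no IR, had the highest *Gpr34* (9.27) and the lowest *Litaf* of the tumor arrays (12.54). *P2ry12* was lowest and highest on the same tumor arrays as the macrophage mean. The part of macrophage RNA in the tumor against LN values of the 9 genes was not tested.

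Fibroblast markers followed tissue as well, with 7 of 12 higher in tumor without IR and 7 with it and mean levels of 8.91 and 8.85 in tumor IR and 8.76 and 8.42 in tumor no IR, against 6.13 and 6.13 in LN IR and 6.27 and 6.45 in LN no IR. *Col3a1*, a collagen gene of that list, read 12.70 and 12.81 in tumor IR and 12.74 and 12.51 in tumor no IR. In LN it read 5.67 and 5.99 with IR and 6.12 and 8.30 without. The part of fibroblast RNA in the tumor against LN values of the 9 genes was not tested either. B cell markers went the other way from fibroblast markers, with 4 of 10 lower in tumor in each comparison. Mast cell and basophil markers, of interest for *Gpr34*, had 0 of 10 called in any comparison, with mean levels of 5.92 to 6.02 in tumor IR and 5.57 to 5.70 in tumor no IR, against 6.04 to 6.09 in LN IR and 5.73 to 5.76 in LN no IR. The 11 measured T cell identity genes, *Cd3e* and *Cd8a* among them, had 0 calls in all comparisons and mean levels of 11.11 to 11.27 in tumor IR and 11.39 to 11.44 in tumor no IR, against 11.28 to 11.54 in LN IR and 11.63 to 11.74 in LN no IR, so that the labelled cell type had its defining markers.

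**Figure D5:**
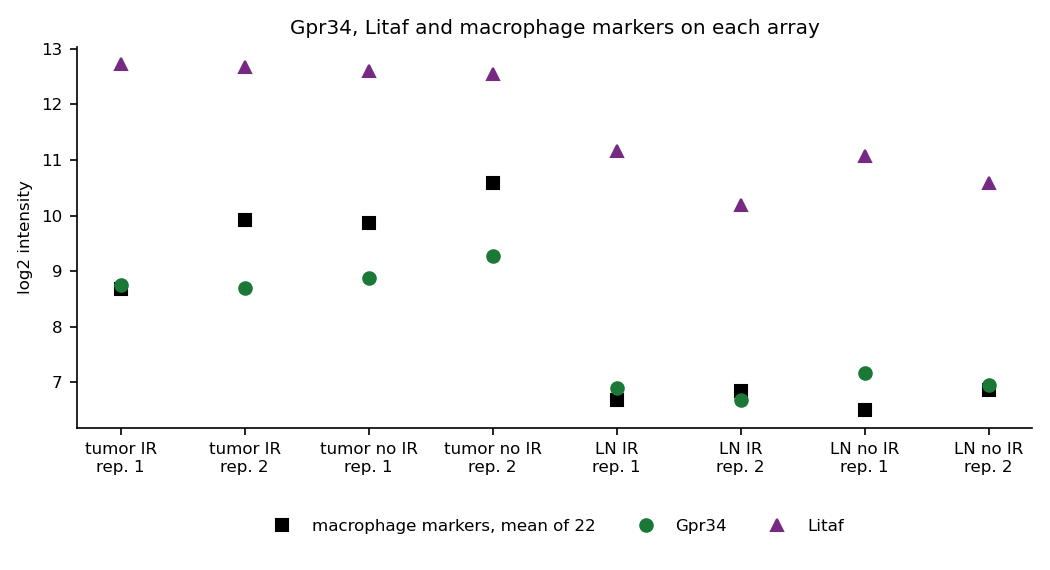
Log2 intensity on each of the 8 arrays of *Gpr34* (circles), *Litaf* (triangles) and the mean of the 22 macrophage and monocyte markers (squares). All 3 are higher on the 4 tumor arrays, and between the tumor arrays the marker mean spans 8.68 to 10.59, *Gpr34* 8.70 to 9.27 and *Litaf* 12.54 to 12.72.

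Patterns over the 8 arrays were compared by the root mean square difference of log2 values, each gene centred on its own mean, against 4160 genes that were at least of median brightness and spanned at least 1 log2 unit. *Nr4a2* was nearest to *Dusp1* (0.16), *Klf9* (0.18) and *Fos* (0.19), and *Vps37b* to *Jun* (0.28), *Ifngr1* (0.28) and *Mxd1* (0.29). *Rgs2* and *Sik1* shared *Tiparp*, at 0.13 and 0.23, and *Nr4a1* was nearest to *Ctc1* and *Zmynd8*, both at 0.15. The nearest to *Nr4a3* was *Csrnp1* (0.26), to *Rgs1* *Jdp2* (0.23) and to *Litaf* *Cd200r1* (0.14). *Gpr34* was nearest to *Cask* (0.17), *Lat2* (0.17) and *Klrk1*, the activating receptor NKG2D (0.19). Among the 9 genes themselves *Litaf* and *Gpr34* lay closest (0.30), followed by *Sik1* and *Rgs2* (0.30) and *Nr4a2* and *Rgs2* (0.31), and *Nr4a1* and *Gpr34* lay farthest apart (1.22). These distances are descriptions over 8 arrays that share their tissue and IR groups.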

How the data were processed

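CD8+ T cell RNA was hybridised to 8 Affymetrix mouse expression arrays, 2 for each of 4 groups. The authors processed the scans with RMA, whose version is not named in the sources read, and the deposited table of log2 values was used unchanged. RMA forces the arrays onto one distribution, so a shift shared by most genes of an array is lost. Of 45101 probe sets, 35877 carry a gene name in the array annotation and were tested (34945 name 1 gene, 932 several), 9160 name none and 64 are controls. A gene was read on its brightest probe set that named it alone. The 4 groups were fitted by least squares in limma 3.58.1 (R 4.3.3), with variances moderated over 4 residual and 3.13 prior degrees of freedom, and Benjamini-Hochberg adjustment covered all 35877 probe sets. The thresholds are those of the study's methods, which used a robust fit and its overlap with SAM. The 9 genes and the gene lists were chosen with earlier results of these data known, so no p was adjusted over a list. The lists hold 143 genes, of which 131 have a probe set of their own, and from each the called genes with the largest fold changes were named. The fit was tested on simulated data with the same spread in all 4 groups and no tissue difference. That test therefore does not cover the larger spread of the LN arrays. The design text states 2 independent experiments, without saying that a replicate number marks 1 of them. Deviations of same-numbered arrays correlated at 0.43 between IR and no IR in each tissue, and between −0.14 and 0.07 across tissues. The main fit did not use the numbers as pairs. The replicate block named below was shared by both tissues, and pairs within each tissue were not fitted. Alternatives were the robust fit, array weights, a mean-variance trend, a replicate block, fits on 4 arrays, another choice of probe set, a filter on dim ones, cyclic loess, scaling to genes of T cell identity and leaving out each array. Identity of NR4A proteins was not analysed here.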

Additional observations from a re-analysis of the deposited data

Results flagged for a closer look

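*Vps37b* was set apart because its IR effect ran in opposite directions in the 2 tissues: both tumor IR arrays lay below both tumor no IR arrays, and both LN IR arrays lay above both LN no IR arrays. The effect was −0.17 in tumor T cells and 1.78 in LN T cells, a difference of −1.95 (adjusted p = 0.687 in limma). The tumor part of this was within the error of the fit, and the difference did not pass the threshold over all probe sets.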

How the results depend on the processing

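The number of genes called with IR in LN T cells, 191 of all genes, 13 of the 131 list genes and 1 of the 9, was 504, 23 and 4 with the robust fit, 69, 4 and 0 when arrays were weighted, and 0, 0 and 0 with only the 4 LN arrays in the fit. Scaling to T cell identity genes gave 317 and, of the 9, 4, cyclic loess 4 of the 9 and leaving out the dimmer 50% of probe sets 2 of the 9. Leaving out 1 array gave 67 to 1789, 2 to 38 and 0 to 4. In tumor T cells, where 18, 0 and 0 were called, the robust fit gave 177 and 4, array weights 200 and 4, the 4 tumor arrays alone 173 and 4, scaling to identity genes 36, and leaving out 1 array 0 to 90 and 0 to 3, with 0 of the 9 under each. The difference of IR effects, 0, 0 and 0, was 18, 3 and 1 with the robust fit and 1 gene with a mean-variance trend, and 0 to 770, 0 to 10 and 0 to 1 without 1 array. In the tissue comparison without IR, 1008 genes and 27 list genes were called, 632 without the dimmer probe sets, 41 list genes each with the robust fit and with weighted arrays, and 540 to 1181 and 17 to 40 without 1 array. With IR these were 1237 and 36, and 568 to 2412 and 19 to 45 without 1 array.

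Scaling to identity genes moved the median of all genes by 0.22 with IR in tumor T cells and by 0.28 in LN T cells, and 94.3% of its LN calls were higher, against 74.9%. It turned *Nr4a2* (0.21) and *Vps37b* (0.0508) in tumor T cells and *Litaf* (0.13) and *Gpr34* (0.0137) in LN T cells to the other sign, and *Nr4a2* in tumor T cells also turned with the most variable probe set (0.44) and cyclic loess (0.0635). Without 1 array the LN effect of *Rgs1* ran from −0.29 to 1.06 and of *Litaf* from −0.65 to 0.34, the tumor effect of *Nr4a2* from −0.13 to 0.11, and the difference of effects of *Nr4a3* from −1.60 to 0.41, of *Rgs1* from −0.70 to 0.66, of *Litaf* from −0.20 to 0.78 and of *Gpr34* from −0.28 to 0.12. None of these values was called, and the cause was not tested. With the replicate number as a block, 15 genes were called with IR in tumor T cells, 159 in LN T cells, 1100 between tissues without IR and 1334 with it, and *Vps37b* stayed the 1 called of the 9. Crossed numbers, an alternative chosen after seeing the data, gave 1371 genes with IR between tissues.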
